A study of Homo sapiens with 24 samples.

Results

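The broad BRG1 domains are the peaks of 3000 bp or more in the BRG1 list of RWPE1 cells that make SCHLAP1, of any annotated place. There were 665 of them among 51504 BRG1 peaks (1.29%, 95% exact binomial interval 1.20 to 1.39), and they held 2512224 of the 44824656 bp under BRG1 peaks (5.60%). They were chosen by width alone, a measured value, so their widths are given as a description. RWPE1 is an immortal cell line from the epithelium of a benign human prostate. Its cells carried a lentivirus for SCHLAP1, a long noncoding transcript known from aggressive prostate tumours, and were held in 2.5 ug/mL blasticidin. Cells of all groups were fixed for 30 min with 0.3% formaldehyde, which was then stopped with 125 mM glycine. Chromatin cut with MNase was precipitated with antibodies to BRG1, BRM or SNF5, with 2 samples for each, and 1 peak list was deposited for each subunit. All domains therefore come from 1 cell line with 1 lentiviral construct. The subunits were not profiled in the LACZ control cells, and the lists hold positions without reads, so no value below has a replicate spread and the depth behind it is unknown.

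SWI/SNF complexes use the energy of ATP to slide and evict nucleosomes, which opens promoters and enhancers to transcription factors. BRG1 (SMARCA4) and BRM (SMARCA2) are the alternative ATPases, so that a single complex holds one or the other, and SNF5 (SMARCB1) is a core subunit of the BAF and PBAF forms that helps to hold the nucleosome. Long stretches of remodeller are known from strong promoters and from clustered enhancers of genes that define a cell type.

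The promoters below show what lies at the gene starts of the widest domains. Each is the RefSeq promoter window (GRCh38.p14), 250 bases before and 50 from the transcription start site (TSS) on, of the first 5 protein-coding genes, by width of the domain, whose start lay in a domain and inside an SNF5 peak. They are printed 5′ to 3′ on the strand of the gene, and capitals mark the bases inside the SNF5 peak. SDC4 encodes syndecan-4, a heparan sulfate proteoglycan of cell adhesion (chr20:45348375-45348674, minus strand). ZMYND8 encodes a reader of histone marks (chr20:47356650-47356949, minus strand). TGIF1 encodes a homeodomain corepressor of TGF-beta signalling (chr18:3449922-3450221, plus strand). ZFP36L1 encodes a protein that binds AU-rich RNA and promotes its decay (chr14:68793367-68793666, minus strand). ADRM1 encodes a ubiquitin receptor of the proteasome (chr20:62302747-62303046, plus strand).
SDC4: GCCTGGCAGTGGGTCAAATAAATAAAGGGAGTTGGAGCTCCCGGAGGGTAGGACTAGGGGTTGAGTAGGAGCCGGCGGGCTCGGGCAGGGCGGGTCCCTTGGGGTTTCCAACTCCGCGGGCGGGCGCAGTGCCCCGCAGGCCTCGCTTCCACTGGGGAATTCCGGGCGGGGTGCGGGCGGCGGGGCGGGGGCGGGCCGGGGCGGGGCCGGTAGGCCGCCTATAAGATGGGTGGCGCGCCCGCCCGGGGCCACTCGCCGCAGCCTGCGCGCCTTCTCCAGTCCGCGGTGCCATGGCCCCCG
ZMYND8: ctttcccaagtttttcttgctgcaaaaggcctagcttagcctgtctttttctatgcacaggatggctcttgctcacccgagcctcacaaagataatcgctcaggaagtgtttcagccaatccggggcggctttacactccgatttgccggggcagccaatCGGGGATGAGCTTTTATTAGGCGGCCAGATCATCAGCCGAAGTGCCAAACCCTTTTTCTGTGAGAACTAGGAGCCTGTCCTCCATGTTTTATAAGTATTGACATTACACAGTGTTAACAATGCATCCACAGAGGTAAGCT
TGIF1: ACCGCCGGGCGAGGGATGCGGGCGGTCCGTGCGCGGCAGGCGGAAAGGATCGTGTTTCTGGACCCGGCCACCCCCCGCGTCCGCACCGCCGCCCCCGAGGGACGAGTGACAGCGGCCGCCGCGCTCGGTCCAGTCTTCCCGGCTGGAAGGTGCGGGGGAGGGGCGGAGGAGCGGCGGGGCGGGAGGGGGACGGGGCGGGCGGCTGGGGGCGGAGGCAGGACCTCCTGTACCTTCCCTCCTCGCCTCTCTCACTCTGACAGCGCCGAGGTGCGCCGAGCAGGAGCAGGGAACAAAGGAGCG
ZFP36L1: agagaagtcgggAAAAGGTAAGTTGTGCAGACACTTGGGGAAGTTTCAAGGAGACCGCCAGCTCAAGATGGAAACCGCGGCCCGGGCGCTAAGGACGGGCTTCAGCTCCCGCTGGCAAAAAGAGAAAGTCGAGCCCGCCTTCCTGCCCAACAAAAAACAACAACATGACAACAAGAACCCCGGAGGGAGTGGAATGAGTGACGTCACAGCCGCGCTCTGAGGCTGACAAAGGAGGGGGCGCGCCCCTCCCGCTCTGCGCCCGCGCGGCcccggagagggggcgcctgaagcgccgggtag
ADRM1: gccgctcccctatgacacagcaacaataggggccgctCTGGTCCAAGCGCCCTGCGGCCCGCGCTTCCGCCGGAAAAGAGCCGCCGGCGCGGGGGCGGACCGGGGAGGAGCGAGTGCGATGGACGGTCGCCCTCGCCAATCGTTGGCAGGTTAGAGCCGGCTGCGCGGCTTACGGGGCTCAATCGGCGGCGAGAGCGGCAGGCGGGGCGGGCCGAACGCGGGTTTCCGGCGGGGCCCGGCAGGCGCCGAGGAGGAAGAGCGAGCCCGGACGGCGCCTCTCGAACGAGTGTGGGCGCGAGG

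The windows of SDC4 and TGIF1 lay wholly inside SNF5 peaks of 599 and 391 bp. SDC4 held 8 matches to the GC box GGGCGG and TGIF1 held 7, on either strand. ZMYND8 was the least GC-rich of the 5 (48.3% G or C, against 62.3% to 75.3% in the other windows), and its SNF5 peak of 169 bp covered 140 of the bases, on both sides of the start. ZFP36L1 held a match to the CRE TGACGTCA that began at -52 from its start and one to the TEAD motif GGAATG at -60, both inside the SNF5 peak. ADRM1 held 46 CG pairs in its 300 bases.

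Most domains were wide by little, and a few were very wide. The median width was 3475 bp (quartiles 3190 and 3985), 501 domains were under 4000 bp, 49 had 5000 bp or more and 3 had 10000 bp or more. Just inside the limit lay DLL1 (3001 bp), APAF1 (3002 bp), IER2 and PMEPA1 (3003 bp each) and OCLN (3004 bp). Just outside lay MIR4648 (1 bp under the limit), S100A16 (2998 bp), MFN2 (2997 bp), and WNK2 and RPL23AP16 (2996 bp each). The limit of 3000 bp cuts a continuous range.

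The deposited name of a domain is its nearest TSS, and it did not always name the gene whose start the domain covered. The widest domain (chromosome 20, 45336230 to 45349423, 13194 bp) was named for AL021578.1 and annotated as intron, while the RefSeq start inside it was that of SDC4. The domain named for MIR3193 (5387 bp) held the start of ID1, an inhibitor of basic helix-loop-helix factors. That of AC010997.3 (5723 bp) held ZNF503, that of SPESP1 (5374 bp) held ANP32A, and that of ABALON (5367 bp) held BCL2L1, an inhibitor of apoptosis. In all, 452 protein-coding genes of the RefSeq promoter table had a start in a domain, and 105 of them (23.2%) were named by no domain. Of the 99 domains named for a noncoding or unmatched gene, 35 held a protein-coding start.

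**Figure D1:**
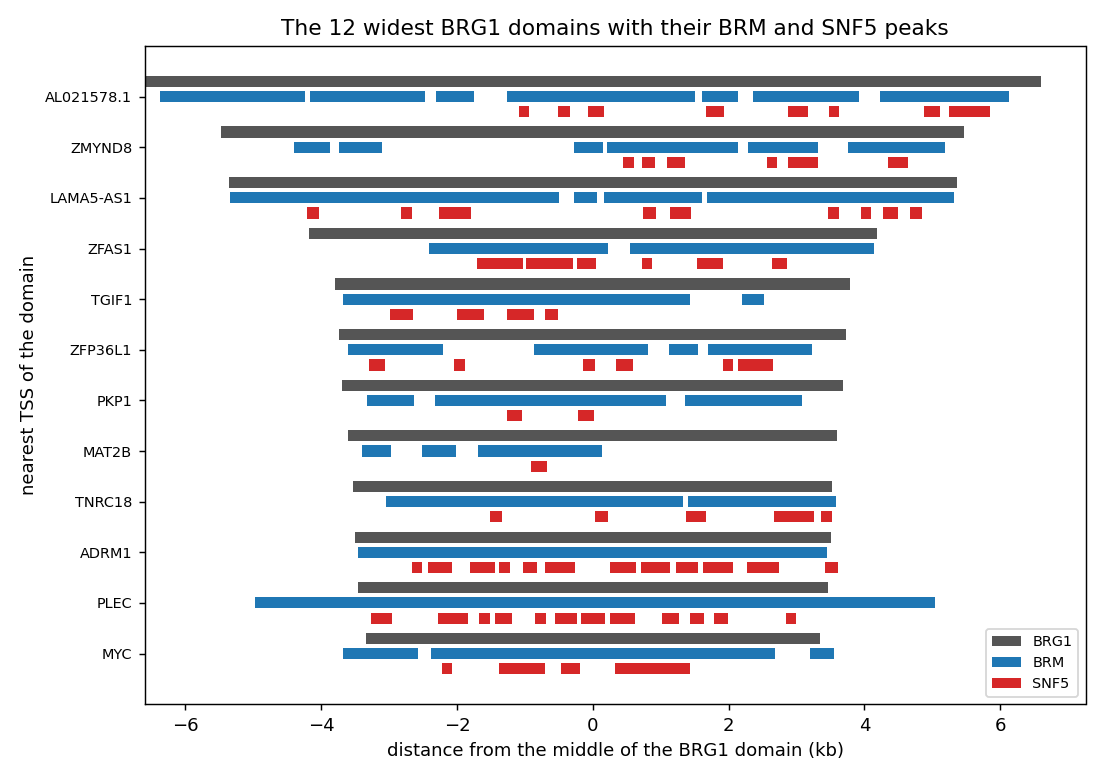
Maps of the 12 widest domains, 1 row each, against the distance from the middle of the domain in kb; grey bars are the BRG1 domain, blue bars BRM peaks and red bars SNF5 peaks that meet it. At PLEC a single BRM peak runs past both edges of the 6921 bp domain, and at ZMYND8 6 BRM peaks cover 54.9% of 10943 bp.

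The 12 widest domains, of which 5 lay on chromosome 20, differed in how BRM and SNF5 filled them. ZMYND8 (47350708 to 47361650, promoter, 10943 bp) held 6 BRM peaks over 54.9% of its length and 6 SNF5 peaks over 13.9%. The domain of LAMA5-AS1 (62349581 to 62360307, 10727 bp) was 95.8% covered by 4 BRM peaks and held 9 SNF5 peaks. ADRM1 (62301709 to 62308726, 7018 bp) lay under 1 BRM peak for 98.6% of its length and held 12 SNF5 peaks over 54.5%. BRM cover was thus far apart at sites with many SNF5 peaks. PLEC, which encodes plectin, a linker of intermediate filaments to hemidesmosomes, had the same number of SNF5 peaks in its widest domain (chromosome 8, 143935170 to 143942090, 6921 bp), with BRM over 100% of it. MAT2B (chromosome 5, 163502986 to 163510185, 7200 bp), a subunit gene of the enzyme that makes S-adenosylmethionine, had nearly the same width but 38.3% BRM cover and 1 SNF5 peak over 3.42%. PKP1, the desmosomal plakophilin 1, was the one site of the 12 that did not cover its nearest TSS, which lay 7104 bp from the middle of the domain (chromosome 1, 201305396 to 201312775, 7380 bp). ZFAS1, a host gene of small nucleolar RNAs, had 74.5% BRM cover and 6 SNF5 peaks in 8366 bp. TGIF1 had 71.6% and 4, ZFP36L1 67.5% and 6, TNRC18 92.1% and 5, and MYC, on chromosome 8, 89.4% and 4.

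Most domains lay at gene starts. By the deposited label 457 domains were promoter (68.7%, 65.0 to 72.2; all BRG1 peaks 37.3%), 141 intron (21.2%), 17 exon (2.56%) and 50 distal (7.52%). The label counts from the middle of a peak, and by the deposited distance 538 domains (80.9%, 77.7 to 83.8; all BRG1 peaks 27%) covered their nearest TSS. Of the 208 domains not labelled promoter, 81 covered it. Starts of the RefSeq promoter table, which lists none on chromosome 8, lay in 420 of 634 domains on the other chromosomes (66.2%, 62.4 to 69.9; all BRG1 peaks 18.8%). Both shares that cover a start depend on width, by which the domains were chosen. All BRG1 peaks had a median width of 667 bp, so their shares are not a comparison at equal width. Up to 9 starts lay in a domain. Starts on both strands lay in 153 of the 420 (36.4%, 31.8 to 41.2), as at TFAP2A, an epithelial transcription factor gene, and its antisense RNA (6222 bp domain), and at IRX4 and IRX4-AS1 (6152 bp).

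The nearest class in width, the 2295 BRG1 peaks of 2000 to under 3000 bp, served for comparison. By two-sided Fisher's exact tests adjusted over 4 results, domains covered a RefSeq start more often than these peaks (66.2% against 60.0%, a difference of 6.27 points with a 95% Newcombe interval of 2.00 to 10.4, adjusted p = 0.00555). The share labelled promoter did not differ detectably (68.7% against 69.5%, interval of the difference -4.84 to 3.13 points, adjusted p = 0.703, Fisher's exact test). In the central 2000 bp of every peak, which gives all peaks the same length, the order turned, with 50.8% of domains against 57.9%. This opposite difference of -7.12 points (-11.5 to -2.73) passed the test as well (adjusted p = 0.00199, Fisher's exact test). For the 155 domains of 4000 bp or more off chromosome 8, with whole peaks, the share was 66.5%. The difference was as large as the first but did not pass the test (6.48 points, -1.53 to 13.7, adjusted p = 0.126, Fisher's exact test). The tests treat peaks as independent trials, which neighbouring peaks are not, and all intervals here cover counting error only.

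**Figure D2:**
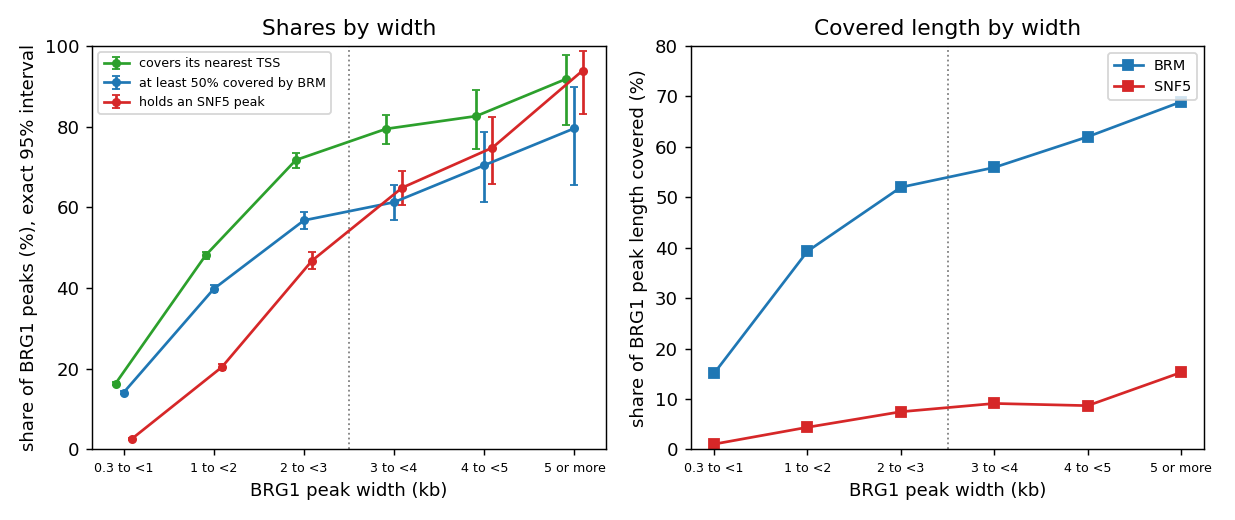
Shares of BRG1 peaks by width class (left, percent with exact 95% intervals) and share of BRG1 peak length covered by BRM or SNF5 peaks (right, percent); the dotted line marks the limit of 3 kb. SNF5 was met by 46.8% of peaks of 2 to under 3 kb and by 93.9% of those of 5 kb or more.

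BRM was found in nearly every domain, usually as more than 1 peak. Of peaks of 2000 to under 3000 bp, 94.1% met BRM too, and 32.9% met 2 or more BRM peaks. BRM peaks met 654 domains (98.3%, 97.1 to 99.2; all BRG1 peaks 35.7%), with 1 peak in 241, 2 or more in 413 and 5 or more in 12. BRM covered a median of 57.9% of a domain (quartiles 43.7 and 74.3) and 58.8% of the summed length. Where a domain held several BRM peaks, the gaps between neighbours had a median of 240.5 bp (quartiles 114.75 and 492), so BRM was broken by short gaps. In the 1302 meetings of a BRM peak with a domain, which count a peak once for each domain it met, the BRM peak had a median width of 893 bp, against 547 bp for all BRM peaks, and ran past an edge of the domain in 154. At least 50% of the length was covered in 427 domains (64.2%, 60.4 to 67.9; all BRG1 peaks 22.6%), and in 56.8% of peaks of 2000 to under 3000 bp (difference 7.43 points, 3.21 to 11.5, adjusted p = 0.00135, Fisher's exact test). With BRG1 peaks within 500 bp of each other joined, 1907 regions took the place of the domains and 3466 that of the narrower peaks. The shares in these larger sets were 38.6% and 38.8% and the call ended. Among peaks that covered their nearest TSS the shares were 67.3% and 65.6% (difference 1.67 points, -2.99 to 6.15, adjusted p = 0.496, Fisher's exact test). Among those that did not they were 51.2% and 34.4% (16.8 points, 7.44 to 26.1, adjusted p = 0.000850, Fisher's exact test). Whether these 2 differences differ from each other was not tested.

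BRM lay over the whole length of 4 domains. They were the PLEC domain of 6921 bp, the MIR3193 domain of 5387 bp that holds the start of ID1, EGR1, an immediate early zinc finger gene (chromosome 5, 138463698 to 138468049, 4352 bp), and the domain of CEBPB-AS1 (3034 bp). They held 12, 6, 4 and 4 SNF5 peaks, over 46.8%, 68.7%, 41.3% and 30.7% of their length. The MIR3193 domain had the highest SNF5 cover of all 665.

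SNF5 lay in most domains, in short pieces. SNF5 peaks met 457 domains (68.7%, 65.0 to 72.2; all BRG1 peaks 9.58%), with 1 peak in 227, 2 or more in 230, 3 or more in 97 and 5 or more in 19. SNF5 covered 9.79% of the summed length. The domains, with 5.60% of the length under BRG1, met 874 of the 6489 SNF5 peaks (13.5%, 12.6 to 14.3) and 1299 of the 22157 BRM peaks (5.86%). Of the 874, 852 met a BRM peak as well (97.5%, 96.2 to 98.4), against 91.9% of all SNF5 peaks. Neighbouring SNF5 peaks in a domain lay a median of 640 bp apart from middle to middle (quartiles 434.5 and 1001.5), and 312 of 417 such distances were under 1000 bp. An SNF5 peak lay in 46.8% of peaks of 2000 to under 3000 bp, so domains had one more often by 21.9 points (17.8 to 25.9, adjusted p = 4.19e-23, Fisher's exact test). In the central 2000 bp of every peak the shares were 60.3% and 46.3% (difference 14.0 points, 9.70 to 18.2, adjusted p = 8.24e-10, Fisher's exact test). The difference passed the test at peaks that covered their nearest TSS (75.5% against 56.7%) and at those that did not (40.2% against 21.7%).

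BRM cover rose from each width class to the next, while SNF5 was highest in the 49 domains of 5000 bp or more. BRM covered 52.0% of the length of peaks of 2000 to under 3000 bp, 55.9% in those of 3000 to under 4000 bp, 62.0% in those of 4000 to under 5000 bp and 68.9% in those of 5000 bp or more. SNF5 covered 7.47%, 9.12%, 8.68% and 15.3% in the same classes. Per 10 kb of BRG1 peak there were 2.76, 3.28, 3.16 and 5.02 SNF5 peaks. The count of BRM peaks per 10 kb went the other way (5.48, 5.14, 5.22 and 4.60).

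**Figure D3:**
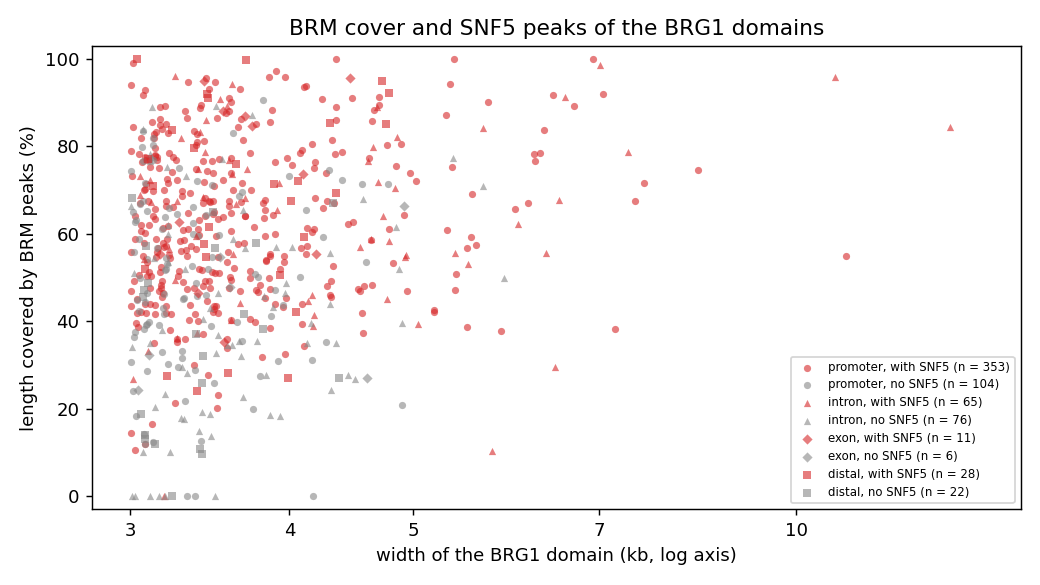
Each point is 1 of the 665 domains, by width in kb (log axis) and the percentage of its length covered by BRM peaks; shapes give the deposited place and red points hold an SNF5 peak. Of the 49 domains of 5000 bp or more, 93.9% hold SNF5, and 11 domains, the widest of 4171 bp, lie at 0% BRM.

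Both subunits were densest in the inner part of a domain. With each domain cut into 10 equal pieces and both sides folded together, BRM covered 31.7% of the outermost pieces, 53.8% of the next, and 65.7%, 70.1% and 72.5% further in. SNF5 covered 2.90%, 8.16%, 11.3%, 14.0% and 12.6%. In peaks of 2000 to under 3000 bp the outermost pieces had 22.4% BRM and 1.62% SNF5, and BRM covered 71.0% of the innermost.

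The domains reached further into the gene than upstream of it. Among the 193 domains with exactly 1 RefSeq start, the median reach was 1276 bp upstream (quartiles 719 and 1962) and 2389 bp downstream (1602 and 2923), and 133 (68.9%, 61.9 to 75.4) were longer downstream. The narrower peaks had the same lean (76.8% of 710, 73.5 to 79.8). BRM covered 63.7% of the upstream and 58.3% of the downstream length of the domains, and SNF5 peaks stood at 4.09 and 3.26 per 10 kb. At 1000 bp upstream of the start BRM lay over 37.3% of these sites, against 13.7% of sites with a peak of 2000 to under 3000 bp. At 1000 bp downstream the shares were 56.5% and 35.9%. BRG1 peaks themselves lay over 62.7% and 40.6% of the sites at 1000 bp upstream, and over 92.7% and 85.6% at 1000 bp downstream. Width chose the domains, so these BRM shares are not a comparison at equal BRG1 reach. At 100 bp downstream of the start SNF5 lay over 26.9% and 28.9%.

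**Figure D4:**
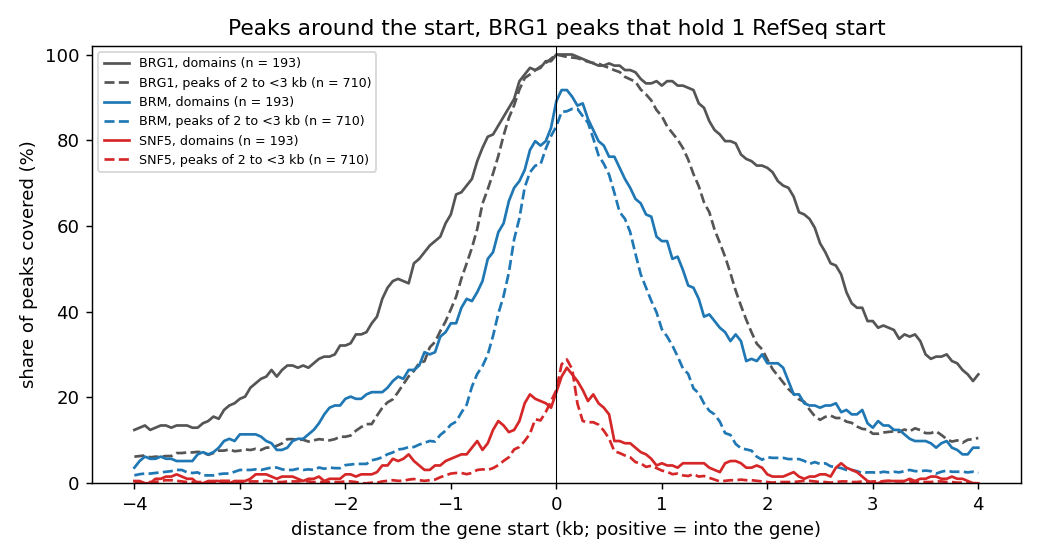
Share of sites covered by a BRG1 (grey), BRM (blue) or SNF5 peak (red) against the distance from the gene start in kb, positive into the gene; solid lines are 193 domains and dashed lines 710 peaks of 2 to under 3 kb that hold 1 RefSeq start. BRM lies over 91.7% of the domains 100 bp downstream of the start and 28.0% at 2000 bp.

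The promoter windows in domains were rich in G and C, as were those in narrower BRG1 peaks. The 800 distinct starts in domains had a median of 66.7% G or C and 27 CG pairs in 300 bases, against 67.7% and 28 for 2246 starts in peaks of 2000 to under 3000 bp and 58.7% and 14 for all 34943 windows. Motifs were searched on both strands, and none contains another. The GC box GGGCGG was in 69.8% of windows in domains, 75.4% in the narrower peaks and 44.9% of all windows. The ETS motif CCGGAAG was in 10.5%, 15.6% and 10.2%, and the AP-1 motif TGANTCA in 7.75%, 5.12% and 7.72%. The CCAAT box was in 28.1%, 32.6% and 34.6%, the TEAD motif GGAATG in 13.0%, 11.0% and 14.0% and the CRE in 2.38%, 3.29% and 1.84%. The ZMYND8 window printed above held 2 CCAAT boxes and 1 GC box, all outside its SNF5 peak.

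Listed genes switched on early by growth factors, and feedback inhibitors of MAP kinase signalling, were often named by a domain. AP-1 genes had a list of their own, with 1 of 15 named (6.67%). A gene counts here when a domain gives it as nearest TSS, which 536 of 20037 RefSeq protein-coding genes met (2.68%), or 4.21% of the 12724 named by any BRG1 peak. Of 27 immediate early and MAPK feedback genes 11 were named (40.7%, 22.4 to 61.2). Peaks of 2000 to under 3000 bp named 10 of the 27, so being named was not particular to domains. No share over all genes is given here for that class. Width chose the domains, so the widest BRG1 peaks of listed genes are given as a description and no separate support. For these 27 genes their median was 2719 bp, against 1149 bp over all protein-coding genes with a BRG1 peak. Besides MYC, EGR1 and ZFP36L1 the named genes were DUSP6, a phosphatase of ERK (4853 bp, 4 SNF5 peaks), KLF6, a zinc finger factor (4559 bp, no SNF5 peak), DUSP1 (4344 bp, 1), ZFP36L2 (3971 bp, 6), IER5, PHLDA1 (3587 bp, 2), SPRY4 (3489 bp, 1) and IER2 (3003 bp, 4). EGR1, DUSP6, IER2 and ZFP36L2 were 100%, 75.6%, 94.1% and 96.0% covered by BRM. IER5 alone of the 11 was named by distal domains, 12164 and 29798 bp from its start.

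Listed basal epithelial genes, among them laminin, integrin and keratin genes, were named in 10 of 26 cases (38.5%, 20.2 to 59.4), with a median widest BRG1 peak of 2479 bp. Peaks of 2000 to under 3000 bp also named 10 of the 26. PKP1 had 2 domains (7380 and 4856 bp) and so had LAMA5, the laminin alpha-5 chain (6578 bp with 6 SNF5 peaks and 4791 bp with 3). ITGA3, the integrin alpha-3 chain, had one of 6050 bp with 3 SNF5 peaks, and CAV1, the coat protein of caveolae, one of 4641 bp with 1. COL17A1, the collagen of hemidesmosomes, had one of 4171 bp with neither BRM nor SNF5. KRT5, the keratin that defines basal cells, had a promoter domain of 3479 bp (chromosome 12, 52519651 to 52523129) with 4 BRM peaks over 71.1% and no SNF5 peak. S100A2 (3656 bp), EGFR (3543 bp, intron), LAMB3 (3147 bp) and SFN (3060 bp, distal) completed the list. The start of ITGA6 lay in a domain of 3920 bp named for AC078883.2. Of 21 luminal prostate genes 2 were named (9.52%, 1.17 to 30.4), NDRG1 (4704 bp, 3 SNF5 peaks) and FKBP5 (3501 bp, 1). Peaks of 2000 to under 3000 bp named 4 of the 21. The luminal share overlaps the basal share in its interval, and their difference was not tested.

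YAP and TEAD targets were named in 6 of 22 cases (27.3%, 10.7 to 50.2), led by NUAK2 (6366 bp), MYOF (5046 bp), F3, which encodes tissue factor (4304 bp), and GADD45A (3582 bp). TGF-beta response genes were named in 5 of 20 (25%, 8.66 to 49.1). TGIF1 (7589 bp) held 4 SNF5 peaks, while SMAD3 (3493 bp), SKI (3119 bp) and PMEPA1 (3003 bp) held none, and SMAD6 (3046 bp) held 1. Of 22 cytoskeleton and focal adhesion genes 4 were named (18.2%, 5.19 to 40.3): PLEC, PXN, which encodes paxillin (4901 and 3679 bp, no SNF5 peak), KRT7 (4129 bp) and ACTN1 (3725 bp). Of 20 p53 targets 3 were named (15%, 3.21 to 37.9), with PHLDA3 (4091 bp), GADD45A and CDKN1A, the p21 inhibitor of cell cycle kinases (3340 bp), holding 3, 3 and 4 SNF5 peaks. Peaks of 2000 to under 3000 bp named 10 of the YAP and TEAD targets and 6 of the TGF-beta response genes. They named 11 of the cytoskeleton and focal adhesion genes and 3 of the p53 targets.

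The other lists ranged from 10.3% to none, beside 2.68% over all protein-coding genes. Of 40 ribosomal protein genes 4 were named (10%, 2.79 to 23.7): RPL8 (3643 bp), RPL12 (3296 bp), RPS12 (3265 bp) and RPL24 (3093 bp). Of 39 HOX genes 4 were named (10.3%, 2.87 to 24.2): HOXA9 and HOXA10 (4245 and 3409 bp), HOXC11 (3439 bp) and HOXD11 (3530 bp). The starts of HOXA3, HOXA6 and HOXA11 lay in domains named for the antisense genes HOXA-AS3 and HOXA11-AS. Of 15 AP-1 genes, ATF3 alone was named (3324 bp, 4 SNF5 peaks; 6.67%, 0.169 to 31.9), and the start of FOSL2 lay in a domain of 4619 bp named for FLJ31356. Of 18 snoRNA host genes ZFAS1 alone was named (5.56%, 0.141 to 27.3), and the start of SNHG7 lay in a domain of 3985 bp named for SNORA17A. None of 29 SWI/SNF subunit genes was named, although 28 had a BRG1 peak. A count of 0 allows up to 10.3% when set at 3 counts of the total, and the exact interval reaches 11.9%. None of 20 hepatocyte and 20 blood cell genes was named (up to 15% each at 3 counts, exact interval to 16.8%). The lists were chosen with earlier results of these data known, so the counts are a description.

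**Figure D5:**
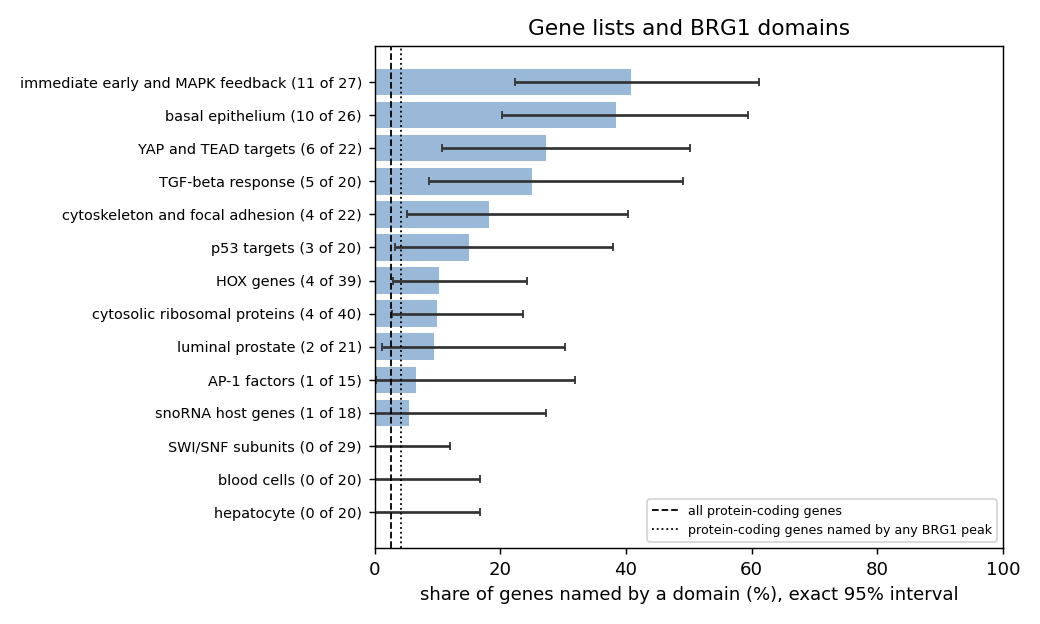
Share of the genes of each list named as nearest TSS by a domain, in percent, with exact 95% intervals; the dashed line is the share over all protein-coding genes (2.68%) and the dotted line that over those named by any BRG1 peak (4.21%). Immediate early and basal epithelial genes stand highest, at 40.7% and 38.5%.

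Some domains stood in small groups. Within 10000 bp of each other stood 47 domains, in 21 groups, of which 5 held 3. The HOXA group on chromosome 7 (27163354 to 27186530, HOXA9 to HOXA11-AS) held 3 SNF5 peaks. The LAMA5 group on chromosome 20 (62349581 to 62372147) had 22096 bp under its domains, with 18 SNF5 peaks. The others were BCL9L and UPK2 on chromosome 11 (3 SNF5 peaks), RXRA and MIR4669 on chromosome 9 (6), and EPHA2, an ephrin receptor gene, on chromosome 1 (5). PLEC and RXRA, a nuclear receptor gene, were each named by 3 domains, and 34 genes by 2 or more, among them ZMYND8, GSE1 and ITPRIP. Within 10000 bp of its edges a domain had a median of 3 other BRG1 peaks, and a peak of 2000 to under 3000 bp had 2. No other BRG1 peak lay there for 15.6% of domains (13.0 to 18.6) and for 24.4% of the narrower peaks (22.7 to 26.3).

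Intron domains that did not cover their nearest TSS lay at long genes. Some of these hold another start: of the 120 domains of any place that did not cover it, chromosome 8 left out, 15 covered a RefSeq start, as did that of PID1. Of the intron domains, 72 did not cover their nearest TSS, which lay a median of 5074.5 bp from their middle, and 66 of these held a BRM peak and 23 an SNF5 peak. The 61 matched to a protein-coding gene lay at genes with a median length of 89291 bp, against 24115 bp for all protein-coding genes. A longer gene has more room for a peak, and no adjustment was made. Of the 50 distal domains, 28 lay more than 10 kb and 2 more than 50 kb from their deposited nearest TSS, counted from the middle. Off chromosome 8, 10 of 49 distal domains still covered a RefSeq start. A BRM peak lay in 49 of the 50 distal domains and an SNF5 peak in 28 (56%, 41.3 to 70.0). The widest were at LAMA5 (4791 bp), at DLX2, a homeobox gene (chromosome 2, 172094748 to 172099511, 4764 bp, 85.1% BRM), and at DNAJB12 (4725 bp, 95.1% BRM), with 3, 2 and 2 SNF5 peaks. The widest exon domains were at RAI1 (4920 bp), RASSF5 (4601 bp) and TNFRSF12A (4460 bp).

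Domains without BRM were few, the widest of 4171 bp at COL17A1, while 208 domains held no SNF5 peak. BRM was missing from 11 domains, and 10 of them lacked SNF5 too. After COL17A1 came PID1 (3498 bp, in an intron 137238 bp from the TSS), MIER1 (3370 bp), MED12L (3323 bp) and MIR31HG (3237 bp, distal). The eleventh, at MBNL2, a splicing factor gene (3187 bp, intron), held 1 SNF5 peak of which 153 bp lay in the domain, and was the only domain with SNF5 and no BRM. BRM without SNF5 was seen in 198 domains (29.8%, 26.3 to 33.4), the widest at SH3PXD2A (5896 bp, 49.9% BRM), RARG, a retinoic acid receptor gene (5675 bp, 71.0%), SPESP1 (5374 bp, 77.4%), RAI1 (66.4%) and PXN (4901 bp, 39.6%).

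Some domains covered microRNA genes. Of the 1562 RefSeq hairpins, 17 lay inside 16 domains. The domain named for MIR200C (chromosome 12, 6961271 to 6965906, 4636 bp, 4 BRM and 2 SNF5 peaks) held the hairpins of MIR200C and MIR141, microRNAs known to hold cells in the epithelial state by silencing ZEB1 and ZEB2. The MIR200C hairpin lay on a BRM peak and the MIR141 hairpin met an SNF5 peak. The mature 3p sequences are shown because these are the pair in 1 domain, with the seed (bases 2 to 8) in capitals, and were picked after the values were seen.
hsa-miR-200c-3p: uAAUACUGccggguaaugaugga
hsa-miR-141-3p: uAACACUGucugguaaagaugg
The seeds are AAUACUG and AACACUG. MIR135B lay in another domain (chromosome 1, 205447597 to 205450729, 3133 bp, 35.0% BRM, 1 SNF5 peak), on neither a BRM nor an SNF5 peak.

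Chromosomes differed in how many BRG1 peaks were domains. The share was 2.35% on chromosome 20 (47 of 1997, 1.73 to 3.12), 2.28% on chromosome 5 (75 of 3284, 1.80 to 2.85), 2.09% on chromosome 9 (58 of 2781) and 1.92% on chromosome 10 (57 of 2971), against 1.29% in all. Chromosomes 22 and X had none among 316 and 418 peaks, which allows shares of up to 0.949% and 0.718% at 3 counts of the total (exact intervals to 1.16% and 0.879%). The median width of all BRG1 peaks was 712, 706, 715 and 695 bp on the first 4 and 459.5 and 483 bp on the last pair, against 667 bp in all. The order did not hold throughout: chromosome 8 had 1.73% at a median of 638.5 bp, and chromosome 16 had 0.928% at 688 bp. SNF5 lay in 41 of the 47 domains of chromosome 20 (87.2%, 74.3 to 95.2) and in 62 of the 75 of chromosome 5 (82.7%, 72.2 to 90.4). Chromosome 20 had 432 SNF5 peaks beside its 1997 BRG1 peaks, and chromosome 5 had 519 beside 3284. All chromosomes had 6489 beside 51504. The share of all BRG1 peaks with SNF5 on each chromosome is not given here. Without chromosome 20, SNF5 lay in 67.3% of domains and 46.3% of peaks of 2000 to under 3000 bp. The part of copy number or read depth in these shares was not tested.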

How the data were processed

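Of 24 samples in 12 groups of 2, the BRG1, BRM and SNF5 groups of SCHLAP1 cells were used, as the 3 deposited peak lists; the histone-mark and input samples were not used. The authors' lists give positions, widths and distances in bp, with no other unit, counted from 1 in hg38, per the file headers and the submitters' processing notes. Those notes name Bowtie2, SAMtools, MACS2 and deepTools 2.5.2 without roles. The sources used here do not give the threshold, filters or pooling of replicates, and each can move the width of a peak and so the members.

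Overlap meant at least 1 bp. Distances fit the middle of a peak: 55.4% of 30043 neighbouring pairs of peaks with the same nearest TSS implied 1 TSS within 1 bp, against 0.716% from peak starts. Names were matched to RefSeq (GRCh38.p14) by symbol or unique synonym on the same chromosome, for 618 of 665 domains (92.9%). Starts came from the RefSeq promoter table. Shares have exact (Clopper-Pearson) 95% intervals, differences Newcombe intervals and two-sided Fisher's exact tests, Benjamini-Hochberg adjusted over 4 results (threshold 0.05). Overlap, interval and test routines were tested on simulated data. Tools were scipy 1.17.1, statsmodels 0.14.6, pandas 2.3.3, numpy 2.4.6, matplotlib 3.10.9 and Python 3.11.15.

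The members and lists were chosen with earlier results of these data known. Named were the 12 widest domains, the 5 with the most SNF5 peaks, the 5 of 4000 bp or more with the highest BRM share, the 5 widest without BRM and with BRM but no SNF5, the 3 widest of each place, the 5 on each side of the limit, up to 8 genes with the most domains and up to 4 genes per list; further names were chosen after their values were seen. Up to 6 promoters off chromosome 8 were to be printed, and 5 are.

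Alternatives were other width limits, comparison classes and overlap rules, joined peaks, central windows, chromosome 20 left out and, chosen after seeing the data, the deposited distance and sites at or away from a TSS.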

Additional observations from a re-analysis of the deposited data

How the results depend on the processing

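The excess of SNF5 over narrower peaks kept its direction and passed the test in all 9 alternatives. That of BRM cover did so in 7 of 9 and that of RefSeq starts in 6 of 8. The narrower peaks had 2000 to under 3000 bp, save for settings with 1000 to under 2000 bp or with a limit of 2500 bp. A longer peak meets an SNF5 peak or a start more easily, and only the central window gave all peaks the same length. In the other settings this advantage of length was not removed. In the central window SNF5 lay in 60.3% of domains, against 46.3%. With BRG1 peaks within 500 bp joined, 38.6% of the 1907 regions that replaced the domains were at least 50% covered by BRM. The share was 38.8% of the 3466 that replaced the narrower peaks. At unjoined peaks that cover the nearest TSS it was 67.3% of domains, against 65.6%. In the central 2000 bp of every peak 50.8% of domains held a RefSeq start, against 57.9%. That difference ran the other way and passed the test (-7.12 points, -11.5 to -2.73). With a limit of 4000 bp, 66.5% held one, a difference of 6.48 points (-1.53 to 13.7) over fewer domains that no longer passed the test, and 61.6% were labelled promoter, against 69.5%, which then passed it. The promoter share turned from below to above the comparison class when peaks were joined (65.0% against 64.5%), against peaks of 1000 to under 2000 bp (68.7% against 52.1%) and with a limit of 3000 bp to the TSS (84.7% against 78.7%). The cause was not tested, save that the central window gives each peak the same length. No paired analysis was possible because each list gives 1 set of peaks for its 2 samples and carries no replicate; for the same reason no replicate could be left out.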

Other observations

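BRM had broad peaks of its own, and most met a BRG1 domain. Of 79 BRM peaks of 3000 bp or more, 61 met a domain (5.86% of all BRM peaks did) and all 79 met a BRG1 peak of some width. Of the 10 widest SNF5 peaks 4 met a domain, as did 13.5% of all SNF5 peaks. A longer peak meets a domain more easily, and no adjustment was made for length.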
